A study of Mus musculus with 21 samples.

Results

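Cell cycle phase genes were taken as a list of 38 genes by symbol, with 16 genes of S phase and the G1 to S transition, 19 genes of G2 and M phase, and the 3 D-type cyclin genes kept apart. Each was looked up by its exact gene name in 3 deposited tables of gene expression, which hold 43776 gene names in all. A row of their own was found in every comparison for 35 genes, made up of 14 S phase genes, 18 G2 and M phase genes and the 3 D-type cyclins, and the authors tested all 35 each time. Expression of Cdt1 and Gins2 of the S phase group is not analysed here, and Cdt1 enters the promoter counts alone. Foxm1, which encodes a transcription factor of G2 and M phase genes, stood only in a row shared with 4933413G19Rik and is given apart from the counts.

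The libraries were made from polyadenylated RNA of mouse epidermal keratinocytes, 21 in 7 groups of 3. The wild-type groups were hair follicle stem cells (HFSCs) purified by FACS, total epidermal cells, and cultured HFSCs, whose sample titles read 3C-HFSCs. The other 4 groups, whose genotype the labels leave out, were 3C cultures, in which total epidermal cells had been grown for 10 to 14 days. Of these, one pair of groups was the CD34+ and the CD34neg fraction of alpha-6 integrin+ cells, and the other pair had been given dorsomorphin or cyclopamine in the medium for 48 h. Dorsomorphin blocks type I BMP receptors and also AMPK, and cyclopamine blocks Smoothened in the Hedgehog pathway. The series text names cyclopamine as enriching HFSCs in these cultures and dorsomorphin as depleting them. No untreated culture was in the inhibitor table, so that comparison sets one inhibitor against the other.

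Expression is in FPKM, a fragment count scaled to transcript length and library size, and every FPKM printed is the value the authors give for a population. No spread between replicates can therefore be set beside a level, and the precision of a difference rests on the authors' test. The word called marks a difference whose p, adjusted over all tested loci (q), was under 0.05 in the authors' deposited table. Whether the 3 libraries of a group are separate animals, separate cultures or repeats is not in the labels, and the p-values may thus measure technical spread. Read depth was unknown. In the first table, bulk stands for total epidermal cells. The names CD34a6 and HFSC of this table are kept, since no label ties either to the purified or to the cultured cells. The column name HFSC thus does not mark the purified cells. With bulk so read, these columns are the purified and the cultured HFSCs in an order the labels do not give. Culture then cannot be told apart from other differences between them, or between the cultured cells and bulk. The bulge markers Cd34, Lhx2, Krt15 and Sox9 summed to 10700 FPKM in CD34a6, 104 in HFSC and 4830 in bulk. A single marker gave most of these sums, up to 9923 FPKM in CD34a6 and 4791 in bulk. The median of the 4 was 299 FPKM in CD34a6, 23.3 in HFSC and 15.5 in bulk, so by median HFSC lay above bulk. For HFSC against bulk, 1 of the 4 was called higher and 2 lower. The immune markers Ptprc, Cd74, H2-Aa, Cd3e, Cd207 and Lyz2 summed to 5.41, 1.29 and 317 FPKM in CD34a6, HFSC and bulk. In that order, the suprabasal keratinocyte markers Krt1, Krt10, Lor and Ivl summed to 1110, 140 and 34041. Basal keratinocyte markers (Krt5, Krt14, Col17a1, Itga6) summed to 9216, 16578 and 8721. Their log2(FPKM + 1) differences ran from -1.44 to 2.28 for CD34a6 against bulk and from 0.47 to 2.06 for HFSC against bulk. For HFSC against CD34a6 they ran from -0.27 to 2.72. Fibroblast markers (Col1a1, Col1a2, Col3a1, Pdgfra, Dcn, Lum) summed to 33.1, 0.597 and 4.35 FPKM, endothelial markers (Pecam1, Cdh5, Kdr, Tek) to 1.56, 1.05 and 0.236, and melanocyte markers (Pmel, Dct, Tyrp1, Mlana) to 8.34, 0.585 and 6.65. In the CD34+, CD34neg, dorsomorphin and cyclopamine groups these last 3 lists reached at most 5.39 FPKM. Each table was scaled on its own, so no level is set against one of another table.

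A dividing cell copies its DNA in S phase and separates the copies in M phase. D-type cyclins answer growth signals and, with CDK4 and CDK6, start the release of E2F transcription factors from the retinoblastoma proteins, and E2F then turns on the genes of S phase. Many genes of G2 and M phase are held off in resting cells by the DREAM complex and turned on later by B-Myb and FoxM1. In the epidermis, division takes place in the basal layer and in the growing hair follicle, while suprabasal cells leave the cycle and bulge stem cells are mostly at rest outside the growth phase of the hair.

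The promoters of the phases differed in their letters. Of the 38 genes, 29 had an entry in the RefSeq promoter table (GRCm38.p6, 250 bases before to 50 after the start), 13 of S phase and 15 of G2 and M phase. On both strands, 3 motifs were searched: the CCAAT box (CCAAT), bound by NF-Y, the cell cycle homology region or CHR (TTTGAA), bound by the MuvB core of DREAM, and an E2F motif (TTTNNCGC, where each N is C or G). No motif contains another, and matches on opposite strands can overlap, as in Mcm6. The following stretches are the 150 bases just before the start, with matches in capitals, from 4 genes of G2 and M phase and 3 of S phase. The first 4 were chosen from the genes with a CHR in these 150 bases. The 3 of S phase are the only ones of their group with an E2F match there, and the Mcm2 stretch holds a CHR.
Top2a: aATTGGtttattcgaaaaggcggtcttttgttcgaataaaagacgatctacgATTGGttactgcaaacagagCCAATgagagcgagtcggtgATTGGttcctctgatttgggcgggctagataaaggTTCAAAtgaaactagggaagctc
Kif11: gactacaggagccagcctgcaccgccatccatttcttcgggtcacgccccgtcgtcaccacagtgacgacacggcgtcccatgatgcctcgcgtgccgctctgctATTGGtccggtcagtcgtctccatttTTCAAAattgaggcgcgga
Ube2c: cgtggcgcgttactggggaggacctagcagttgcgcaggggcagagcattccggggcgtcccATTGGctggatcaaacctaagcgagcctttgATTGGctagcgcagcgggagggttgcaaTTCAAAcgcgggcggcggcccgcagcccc
Cdk1: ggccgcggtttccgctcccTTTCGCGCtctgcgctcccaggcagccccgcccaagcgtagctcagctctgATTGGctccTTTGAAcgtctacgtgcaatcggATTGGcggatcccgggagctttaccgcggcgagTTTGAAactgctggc
Mcm5: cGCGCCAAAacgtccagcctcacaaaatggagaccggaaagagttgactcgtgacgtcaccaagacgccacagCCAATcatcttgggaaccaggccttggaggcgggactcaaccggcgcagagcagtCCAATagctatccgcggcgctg
Mcm6: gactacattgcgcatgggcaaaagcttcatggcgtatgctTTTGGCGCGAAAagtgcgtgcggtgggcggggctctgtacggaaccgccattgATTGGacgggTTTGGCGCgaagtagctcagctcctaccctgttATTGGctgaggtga
Cdc6: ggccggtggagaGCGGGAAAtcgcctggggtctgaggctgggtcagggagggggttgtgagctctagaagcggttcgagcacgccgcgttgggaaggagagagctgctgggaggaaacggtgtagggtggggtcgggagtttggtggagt
Top2a, Kif11 and Ube2c each hold a CHR downstream of at least 1 CCAAT box, Cdk1 holds all 3 motifs, and the S phase stretches shown hold no CHR. The coordinates are chr11:99024190-99024339 (minus strand) for Top2a, chr19:37376232-37376381 (plus) for Kif11, chr2:164769779-164769928 (plus) for Ube2c, chr10:69352913-69353062 (minus) for Cdk1, chr8:75109359-75109508 (plus) for Mcm5, chr1:128359706-128359855 (minus) for Mcm6 and chr11:98908001-98908150 (plus) for Cdc6. Over the whole window, a CHR lay in 12 of 15 promoters of G2 and M phase genes (80.0%), in 1 of 13 of S phase genes (7.69%, Mcm2) and in 20.2% of 27025 genes of the promoter table. The E2F motif lay in 6 of 13 S phase promoters (46.2%), in 1 of 15 of G2 and M phase (6.67%, Cdk1) and in 2.60% of all. A CCAAT box lay in 14 of 15 (93.3%), in 8 of 13 (61.5%) and in 41.1% respectively. A match describes letters in this window and does not show binding.

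CD34a6 had more transcripts of most replication and mitosis genes than bulk. The level was above bulk for all 35 genes, and 24 of 35 were called higher and 0 lower, while 22% of all 14441 tested loci were called higher and 24.3% lower. On the log2(FPKM + 1) scale, which understates folds of low genes, the median difference was 1.06 for S phase, 1.36 for G2 and M phase and 1.03 for the D-type cyclins, beside 0.00 for all tested loci. In these bulk samples, more dividing cells and more of a transcript per cell cannot be told apart. All 6 immune and all 4 suprabasal markers were called lower in CD34a6, and their part in the cell cycle differences was not tested.

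The 7 S phase genes called higher were 5 of the 6 MCM genes, which encode the subunits of the replicative helicase, with E2f1 and Cdc6. Mcm2 stood at 24.7 FPKM in CD34a6 and 9.74 in bulk, with q = 0.000586 in the authors' deposited table. Mcm4 stood at 25.9 against 9.53 FPKM, and Mcm6 at 52.5 against 23.1. These are differences of 2.53-, 2.72- and 2.28-fold, and Mcm3 and Mcm5 were higher by 2.09- and 1.78-fold. E2f1, the gene of the E2F factor itself, was at 7.41 against 2.72 FPKM, and Cdc6, which loads the helicase on origins, at 5.87 against 1.99. Mcm7 (47.2 against 21.5 FPKM) did not pass, with q = 0.0650 in the authors' deposited table, and its locus spans Ap4m1, Cops6, Mir106b and Taf6. Ccne2, a cyclin E gene that starts S phase, reached 10.8 against 3.10 FPKM without passing (q = 0.0531 in the authors' deposited table).

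None of the 4 genes of nucleotide supply and the polymerase clamp was called, and 0 of them had an unadjusted p under 0.05 in the authors' deposited table, where 25.4% of tested loci were higher at that level. Pcna, the sliding clamp, reached 80.9 FPKM in CD34a6, with 66.3 in bulk. Rrm1 and Rrm2, the subunits of ribonucleotide reductase, were at 40.7 against 30.0 and at 42.04 against 29.8, and Tyms, thymidylate synthase, at 47.0 against 37.1. These 4 differences lay between 0.28 and 0.48 on the log2(FPKM + 1) scale, and those of the MCM genes between 0.80 and 1.35. Ccne1, the other cyclin E gene, was at 4.15 against 3.06 FPKM and was not called either.

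Of 18 genes of G2 and M phase, 15 were called higher in CD34a6. All 6 genes of the centromere, spindle and chromosome group were among them. Top2a, the topoisomerase that untangles replicated DNA, had the highest level of these genes in CD34a6, 139 FPKM against 31.4 in bulk (q = 0.000212 in the authors' deposited table, the smallest it holds for these genes). Mki67, which encodes the Ki-67 coat protein of mitotic chromosomes, was at 37.8 against 7.48 FPKM. Cenpf, a kinetochore protein gene, was at 23.1 against 3.93, and Kif11, a motor that pushes spindle poles apart, at 19.9 against 4.47. These are differences of 5.05-, 5.87- and 4.45-fold, larger than that of any S phase gene. Tpx2, a spindle assembly factor, was at 24.2 against 6.66 FPKM, and Cenpa, the centromeric histone, at 47.6 against 24.3.

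The mitotic kinases and checkpoint genes were all called, 6 of 6. Aurkb, the kinase of the chromosomal passenger complex, showed the widest gap of the list, 37.1 against 6.07 FPKM or 6.11-fold. Its partner in that complex, Birc5 (survivin), was at 29.3 against 11.9. Aurka and Plk1, kinases of spindle poles and mitotic entry, were 2.48- and 2.30-fold higher, and the spindle checkpoint genes Bub1 and Bub1b 3.85- and 2.73-fold. Ccna2, the cyclin of S and G2 phase, was at 42.3 against 11.6 FPKM, Ccnb1 at 20.9 against 9.33 and Ccnb2 at 29.7 against 11.04, and all 3 were called. The genes not called were Cdk1, the kinase these cyclins bind, at 69.5 against 35.4 (q = 0.0841 in the authors' deposited table), and the 2 genes of the anaphase-promoting complex, Cdc20 (45.9 against 27.8) and Ube2c (43.3 against 26.5, q = 0.0556 there). The row of Foxm1 and 4933413G19Rik was at 28.8 against 4.48 FPKM and was called higher.

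**Figure D1:**
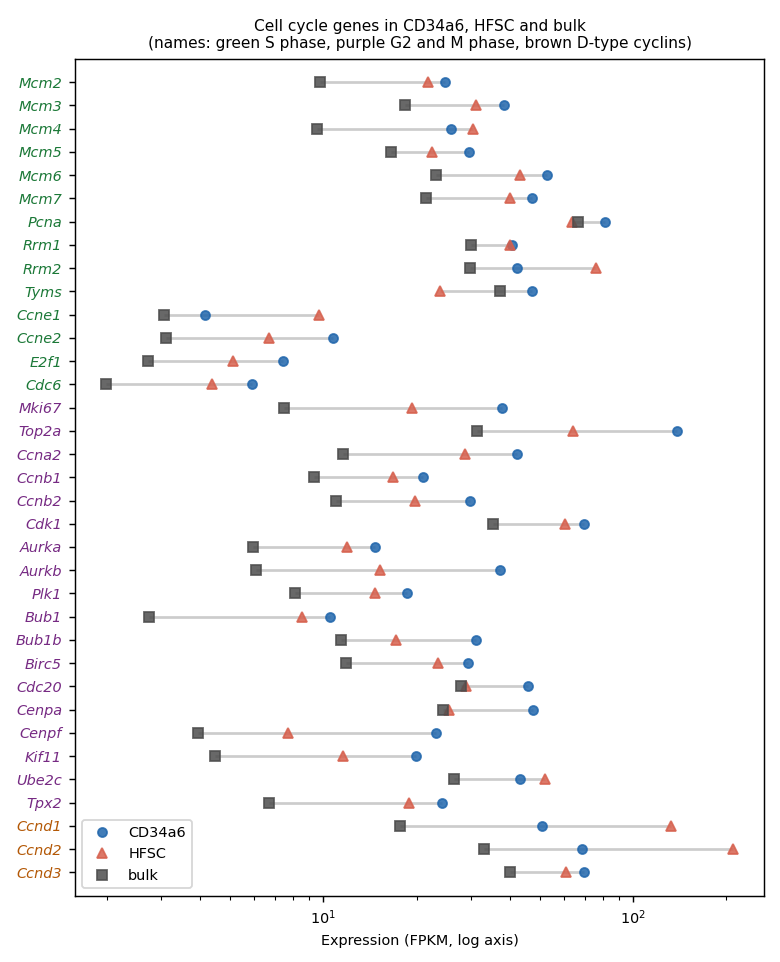
FPKM on a log axis for the 35 genes in the 3 populations of the first table, with 1 point for each gene and population and a line joining them; no error bars exist because each population has a single deposited value. CD34a6 lies above bulk for every gene, and Top2a in CD34a6 reaches 139 FPKM. The HFSC column is above both others for Ccnd1, Ccnd2, Ccne1, Rrm2, Mcm4 and Ube2c.

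HFSC stood above bulk for 33 of 35 genes, the exceptions being Pcna and Tyms, which were not called. It was called higher for 21 and lower for 0, with 19% of 14035 tested loci called higher and 24.7% lower. The median log2 difference was 0.85 for S phase and 0.91 for G2 and M phase, beside -0.11 for all tested loci. Both comparisons use the same bulk libraries, so their values are given side by side and are not independent. Of the 14 S phase genes 6 were called higher: Mcm2 (21.9 FPKM against 9.74), Mcm4 (30.4 against 9.53), Mcm6 (43.1 against 23.1), E2f1 (5.10 against 2.72), Ccne1 (9.69 against 3.06) and Rrm2 (75.8 against 29.8). Of these, Ccne1 and Rrm2 had not been called for CD34a6 against bulk.

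The 13 of 18 genes of G2 and M phase called higher in HFSC included Bub1 (8.54 FPKM against 2.73 in bulk), Tpx2 (18.9 against 6.66) and Mki67 (19.3 against 7.48). Mki67 had q = 0.00722 in the authors' deposited table. Top2a was at 63.7 against 31.4 FPKM, Aurkb at 15.2 against 6.07, Ccna2 at 28.6 against 11.6 and Kif11 at 11.5 against 4.47. These were differences of 2.03- to 2.59-fold. Ube2c, which was not called for CD34a6, was called here, at 51.9 against 26.5. Cenpa (25.5 against 24.3) and Cdc20 (28.8 against 27.8) were within a factor of 1.05 of bulk, and Cdk1, Cenpf and Bub1b were not called. The row of Foxm1 and 4933413G19Rik was called higher, at 9.22 against 4.48 FPKM (q = 0.0487 in the authors' deposited table). At an adjusted p under 0.01, the 13 calls became 7. Of the immune markers 5 of 6, and of the suprabasal markers 4 of 4, were called lower in HFSC than in bulk, and their part was not tested.

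Set directly against each other, 8 of 18 genes of G2 and M phase were called lower in HFSC than in CD34a6 and 0 higher, and 2 D-type cyclins were called higher. With bulk read as total epidermal cells, this sets purified and cultured cells against each other, in an order not known. Culture and other differences between the cells cannot be told apart here. Over all loci the shares were 29% of 13962 tested loci called lower and 25.2% called higher. Of 14 S phase genes 2 were called higher and 3 lower. Cenpf stood at 7.72 FPKM in HFSC, with 23.1 in CD34a6, a 2.99-fold difference with q = 0.0116 in the authors' deposited table. Aurkb was 2.44-fold lower (15.2 against 37.1), Top2a 2.17-fold (63.7 against 139) and Mki67 1.96-fold (19.3 against 37.8). The others called lower were Cenpa, Bub1b, Kif11 and Ccnb2, by 1.87-, 1.82-, 1.72- and 1.496-fold. Of the 6 centromere, spindle and chromosome genes, all 6 had a lower level in HFSC and 5 were called. Of the 4 mitotic cyclin and Cdk1 genes, all 4 had a lower level and 1 was called. Ube2c was the only gene of G2 and M phase with a higher level in HFSC, 51.9 against 43.3 FPKM, and was not called. The row of Foxm1 and 4933413G19Rik was called lower, at 9.22 FPKM in HFSC against 28.8 in CD34a6 (q = 0.000212 in the authors' deposited table).

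The S phase calls lay in both directions, and both of their shares were below those of all tested loci, so nothing is read from the counts. Ccne1 was higher in HFSC by 2.33-fold (9.69 FPKM against 4.15) and Rrm2 by 1.803-fold (75.8 against 42.04), both with q = 0.000212 in the authors' deposited table. Tyms, E2f1 and Mcm5 were lower, at 23.9 against 47.0, 5.10 against 7.41 and 22.4 against 29.6 FPKM. The other 5 MCM genes were not called and lay between -0.30 and 0.23 on the log2(FPKM + 1) scale. The median difference was -0.29 for S phase and -0.55 for G2 and M phase, beside -0.07 for all tested loci.

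Of the D-type cyclins, Ccnd1 and Ccnd2 rose in the order bulk, CD34a6, HFSC. Ccne1, Rrm2, Mcm4 and Ube2c had that order too. Ccnd1 stood at 17.7 FPKM in bulk, 50.9 in CD34a6 and 132 in HFSC, and each of the 3 pairwise differences was called. Ccnd2 followed the same order at 33.1, 68.5 and 210.05 FPKM, again with every pair called. Against bulk this made Ccnd1 7.45-fold and Ccnd2 6.34-fold higher in HFSC, both with q = 0.000212 in the authors' deposited table. Ccnd3 was at 40.2 FPKM in bulk, 69.5 in CD34a6 and 60.6 in HFSC, and no pair was called. So Ccnd1 and Ccnd2 were highest in HFSC. There, 8 of 18 genes of G2 and M phase were called lower than in CD34a6 (29% of all tested loci), and 13 were called higher than in bulk (19%). Called higher over all tested loci were 22% in CD34a6 against bulk and 25.2% in HFSC against CD34a6. In the cultures 0 of the 3 genes were called in the authors' deposited table. At an unadjusted p under 0.05 there, 0 differed in CD34+ cells and 1, Ccnd1, was higher with dorsomorphin. Of all tested loci, 2.08% were called higher and 4.71% lower in CD34+ cells, and 1.26% and 1.31% with dorsomorphin. At an unadjusted p under 0.05 the shares were 8.69% and 13.9%, and 6.22% and 6.4%. Nothing is read from counts of 3 genes. In CD34+ against CD34neg cells Ccnd1 was at 72.5 and 69.6 FPKM, Ccnd2 at 124 and 115, and Ccnd3 at 14.3 and 10.1.

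**Figure D2:**
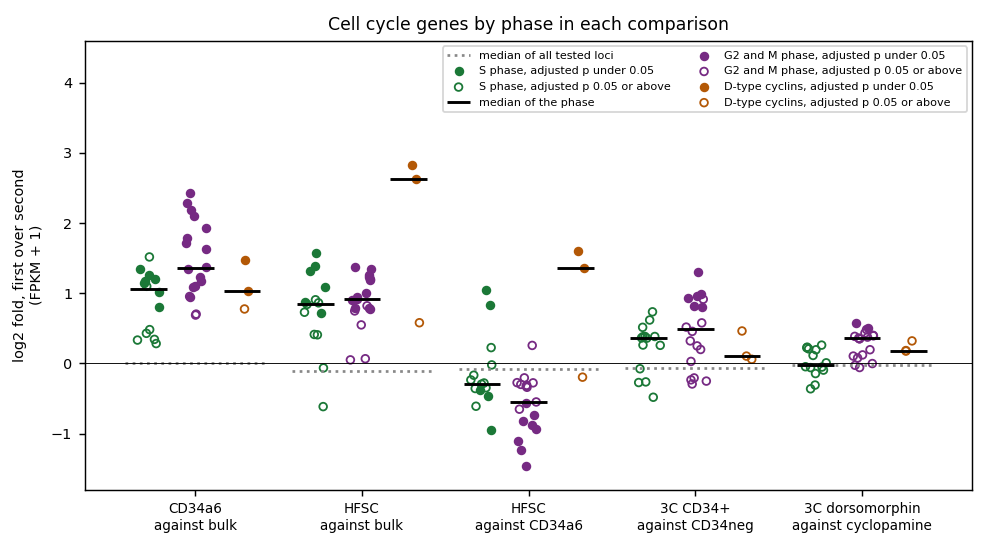
Log2 difference in FPKM + 1 between the first and second population of each comparison, with 1 point for each of the 35 genes coloured by phase; filled points had an adjusted p under 0.05, black bars are the phase medians and dotted lines the median of all tested loci. The G2 and M phase median lies farther from 0 than the S phase median in all 5 comparisons, and the D-type cyclins stand highest for HFSC against bulk.

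Inside the 3C cultures, the CD34+ fraction had more of some mitosis transcripts than the CD34neg fraction, and no S phase gene was called. Of 18 genes of G2 and M phase 6 were called higher and 0 lower, while 2.08% of 11370 tested loci were called higher and 4.71% lower. Tpx2 showed the widest gap, 20.2 FPKM in CD34+ cells and 7.58 in CD34neg cells, a 2.66-fold difference with q = 0.00275 in the authors' deposited table. Plk1 was at 7.26 against 3.33 FPKM (q = 0.0447 in the authors' deposited table), Ube2c at 70.8 against 35.1, Top2a at 66.1 against 33.3, Mki67 at 14.4 against 7.76 and Kif11 at 20.9 against 11.6. These 5 were higher by 1.81- to 2.18-fold. By role, 4 of the 6 came from the centromere, spindle and chromosome group, Plk1 is a mitotic kinase, and Ube2c is the E2 enzyme of the anaphase-promoting complex. The row of Foxm1 and 4933413G19Rik was also called higher, at 19.5 against 7.88 FPKM (q = 0.0274 in the authors' deposited table).

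Of the other 12 genes of G2 and M phase, 8 were above CD34neg and 4 below, and none was called. Ccna2 was at 90.5 against 47.5 FPKM and did not pass (q = 0.0978 in the authors' deposited table). Cenpf, Aurkb and Aurka were above CD34neg, at 6.91 against 4.30, 27.1 against 18.6 and 14.1 against 9.98. Ccnb2 (26.3 against 32.4), Cdk1 (44.2 against 51.1), Birc5 (20.05 against 23.8) and Cenpa (20.7 against 24.8) were below it. Of the rest, Ccnb1 was at 36.6 against 31.8 FPKM, Bub1 at 13.9 against 10.9 and Cdc20 at 12.3 against 10.2, and Bub1b was 1.02-fold above CD34neg. Of 14 S phase genes 10 were above CD34neg, including all 6 MCM genes at 0.26 to 0.62 on the log2(FPKM + 1) scale. The test of the authors' deposited table called 0 of 14, with 1 at an unadjusted p under 0.05, Cdc6 (5.43 against 2.86 FPKM), beside 8.69% of tested loci higher and 13.9% lower at that level. Pcna, the most abundant S phase gene, was at 212 FPKM in CD34+ and 256 in CD34neg cells. That 6 genes of G2 and M phase and 0 of S phase were called is not a test of the difference between the phases. The medians were 0.49 and 0.36, beside -0.07 for all tested loci. The bulge markers were called higher in CD34+ cells, 4 of 4, including the sort gene Cd34 (38.7 against 2.26 FPKM). Immune markers summed to 1.71 and 0.749 FPKM, with 5 of 6 at 0 in both fractions. Suprabasal markers summed to 2.98 and 6.55 FPKM, with 1 of the 2 tested, Krt1, called lower, and the part of these markers was not tested.

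**Figure D3:**
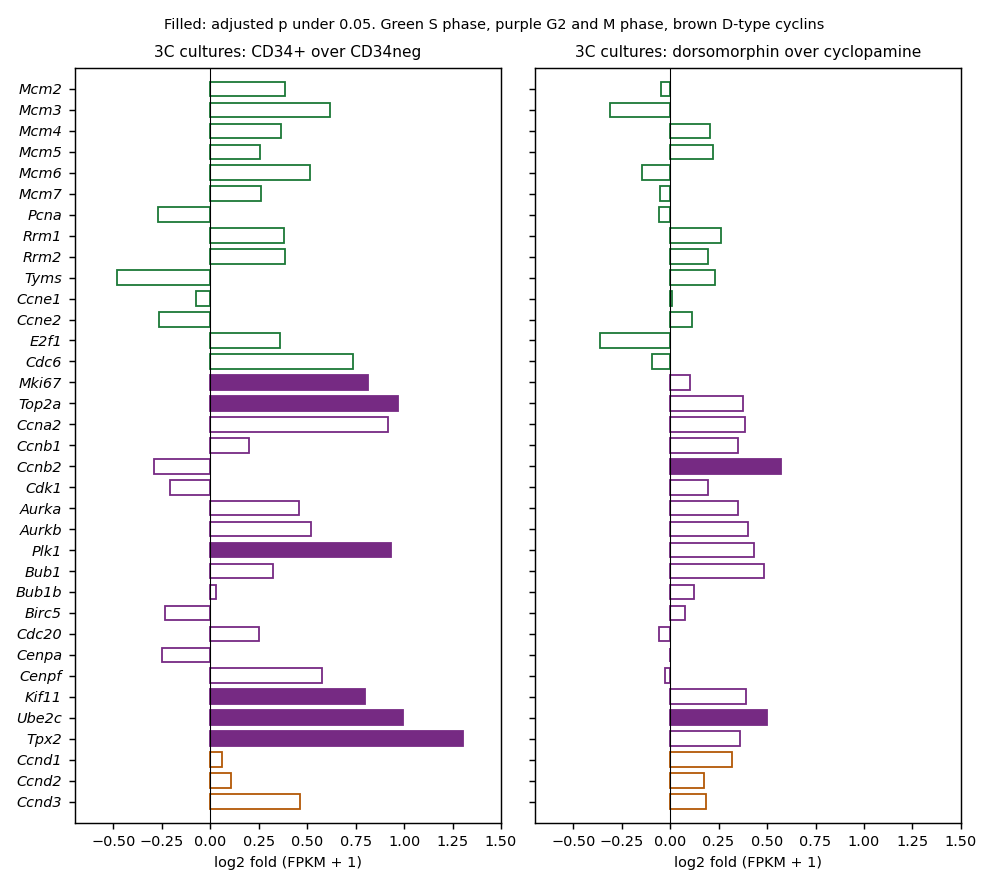
Log2 difference in FPKM + 1 for each of the 35 genes in the 2 culture comparisons, CD34+ over CD34neg on the left and dorsomorphin over cyclopamine on the right; filled bars had an adjusted p under 0.05, and there are no error bars because each population has a single value. Filled bars are found among genes of G2 and M phase only, 6 on the left and 2 on the right.

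Between the inhibitors, 2 of 18 genes of G2 and M phase were called higher with dorsomorphin and 0 lower, and no S phase gene was called. These counts stand beside 1.26% of 11505 tested loci called higher and 1.31% lower. Ccnb2, a B-type cyclin, was at 23.0 FPKM with dorsomorphin and 15.1 with cyclopamine (q = 0.0337 in the authors' deposited table), and Ube2c at 97.0 against 68.3 (q = 0.0227 there). These are differences of 1.52- and 1.42-fold. At an unadjusted p under 0.05 in the authors' deposited table, 9 of 18 were higher and 0 lower, where 6.22% of all tested loci were higher at that level and 6.4% lower. They were Ccnb2, Ube2c, Kif11 (19.1 against 14.3 FPKM), Top2a (60.2 against 46.2), Plk1 (8.64 against 6.14), Bub1 (10.9 against 7.54), Tpx2 (22.4 against 17.2), Ccnb1 (32.9 against 25.6) and Ccna2 (48.8 against 37.1). Mki67 was at 38.7 against 36.0 FPKM and Cenpa at 19.3 in both. The row of Foxm1 and 4933413G19Rik was at 15.6 against 14.1 FPKM and was not called (q = 0.919 in the authors' deposited table).

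Among S phase genes 7 were above and 7 below cyclopamine. The authors' deposited table called 0 of 14, and 1 had an unadjusted p under 0.05 there, Rrm1 (22.2 FPKM against 18.4, adjusted p 0.385). E2f1 was at 1.14 against 1.75 FPKM, Mcm3 at 24.1 against 30.1 and Mcm5 at 8.22 against 6.90. The median difference was -0.02 for S phase and for all tested loci, and 0.36 for G2 and M phase. Ccnd1 was at 94.2 against 75.2 FPKM and was not called (q = 0.285 in the authors' deposited table). When the summed FPKM of the populations was made equal, the S phase median became 0.095, as did that of all tested loci. Then 11 S phase genes were above and 3 below, and the G2 and M phase median was 0.47, with 18 of 18 above. Immune markers summed to 0.480 and 0.626 FPKM in this table and basal keratinocyte markers to 9470 and 9039. Bulge markers summed to 62.2 FPKM with dorsomorphin and 81.1 with cyclopamine, and 1 of 4, Krt15, was called lower (3.61 against 20.6). Suprabasal markers summed to 44.3 and 56.0, with Krt1 called higher (12.4 against 6.52) and Ivl lower (24.5 against 43.1). The part of these markers in the cell cycle differences was not tested.

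The balance between the phases can also be read within a population. The 18 genes of G2 and M phase summed to 684 FPKM in CD34a6 and the 14 of S phase to 457, a ratio of 1.497. The ratio was 1.06 in HFSC (444 over 418) and 0.902 in bulk (246 over 273). In the cultures it was 0.807 in CD34+ and 0.608 in CD34neg cells, and 1.36 with dorsomorphin and 1.098 with cyclopamine. Single genes weigh on such sums. Without the highest gene of each phase, the ratios became 1.45, 1.11 and 1.02 in the first table, 0.989 and 0.892 in the fractions, and 1.63 and 1.39 with the inhibitors, and the order within each table stayed. With the median level of each phase in place of its sum, the ratio was 0.895 in CD34a6, 0.704 in HFSC and 0.583 in bulk, 0.984 with dorsomorphin and 0.818 with cyclopamine. In the fractions it was then 0.662 in CD34+ and 0.665 in CD34neg cells, so their order was not kept. The S phase median minus the G2 and M phase median was -0.30 for CD34a6 against bulk, -0.06 for HFSC against bulk, 0.27 for HFSC against CD34a6, -0.13 for CD34+ against CD34neg and -0.38 for dorsomorphin against cyclopamine. For CD34+ against CD34neg its sign depended on the loci used. Without loci that carry another gene name it was 0.11, and 3 of the 6 calls were left (Mki67, Plk1 and Kif11). Genes are not replicates, and these differences have no test.

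The differences went with exonic length to a degree and in a direction that varied by comparison, and they depended on the populations' scaling. Across 13492 tested loci the difference of CD34a6 against bulk was larger at longer annotated exonic length (Spearman rho 0.31, a description across genes of the same libraries), and within the 18 genes of G2 and M phase rho was 0.49. For CD34+ against CD34neg rho was 0.36 over 10581 loci and 0.19 within those genes. It was 0.28 and 0.30 for HFSC against bulk, -0.07 and -0.43 for HFSC against CD34a6, and 0.14 and -0.36 for dorsomorphin against cyclopamine. Within the S phase genes rho was 0.17 for CD34a6 against bulk, -0.26 for HFSC against bulk and -0.12 for HFSC against CD34a6. In the cultures it was 0.37 for CD34+ against CD34neg and 0.26 between the inhibitors. The median exonic length was 4246 nt for G2 and M phase and 3872.5 nt for S phase. With the trend on length subtracted, the medians for CD34a6 against bulk were 0.92 for S phase and 1.48 for G2 and M phase, and those for CD34+ against CD34neg 0.33 and 0.62. For HFSC against CD34a6 they were -0.18 and -0.52. Summed FPKM over all loci was 406723 in CD34a6, 482175 in HFSC and 917078 in bulk. Making the sums equal raised every gene by 1.17 for CD34a6 against bulk, by 0.93 for HFSC against bulk, by 0.41 for CD34+ against CD34neg and by 0.11 for dorsomorphin against cyclopamine, and lowered every gene by 0.25 for HFSC against CD34a6. After it, all 14 S phase genes were above bulk in HFSC, Pcna and Tyms included, where the median of all tested loci became 0.82. In CD34+ cells, 13 of 14 S phase genes and all 18 of G2 and M phase were above CD34neg, where that median became 0.34.

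**Figure D4:**
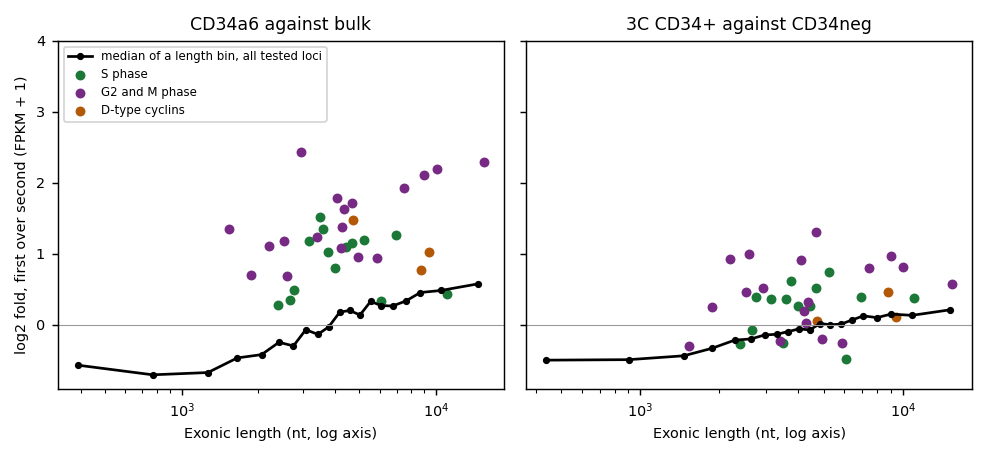
Log2 difference in FPKM + 1 against annotated exonic length on a log axis, for CD34a6 against bulk on the left and CD34+ against CD34neg on the right; coloured points are the 35 genes and the black line joins the medians of 20 length bins of all tested loci. The black line climbs from -0.57 to 0.58 on the left and from -0.50 to 0.21 on the right, and on the left most of the genes lie above it.

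Further genes of the cycle were counted in the same way. Of all tested loci, 22% were called higher and 24.3% lower in CD34a6 against bulk, and 19% and 24.7% in HFSC against bulk. The shares were 25.2% and 29% in HFSC against CD34a6, 2.08% and 4.71% in CD34+ cells, and 1.26% and 1.31% with dorsomorphin. Of 26 other replication genes, 16 were called higher and 0 lower in CD34a6 against bulk (median 1.23), 11 and 1 in HFSC against bulk (0.69), 0 and 9 in HFSC against CD34a6 (-0.45), and 0 in either culture comparison. The 9 of 26 lower in HFSC than in CD34a6 are near the 29% of all tested loci, and nothing is read from them. At an unadjusted p under 0.05 in the authors' deposited table, 5 of them were higher and 1 lower in CD34+ cells, and 0 differed between the inhibitors. At that level 8.69% of all tested loci were higher and 13.9% lower in CD34+ cells, and 6.22% and 6.4% with dorsomorphin. Uhrf1, which keeps DNA methylation through replication, was at 55.4 FPKM in CD34a6, 34.9 in HFSC and 13.2 in bulk. Prim1, a primase subunit, was the one called lower in HFSC than in bulk, at 11.8 against 32.7. Of 24 other mitosis genes, 22 were called higher and 1 lower in CD34a6 against bulk (median 1.37), 12 and 1 in HFSC against bulk (0.70), 0 and 14 in HFSC against CD34a6 (-0.55), 6 and 0 in CD34+ against CD34neg (0.49) and 2 and 0 with dorsomorphin (0.25). Ncapd2, a condensin subunit, was at 91.6 FPKM in CD34a6, 22.8 in HFSC and 23.2 in bulk. Pttg1 (securin) was the gene called lower than bulk, at 17.4 FPKM in CD34a6 and 15.6 in HFSC against 49.0. In CD34+ cells Nek2, Incenp and Kif23, genes of centrosome separation and cytokinesis, were at 6.03, 7.24 and 5.59 FPKM against 2.55, 3.39 and 2.52. With dorsomorphin the 2 were Ckap2l (14.8 against 10.4) and Smc4 (65.9 against 49.4).

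Of 17 pocket protein, E2F and MuvB genes, for CD34a6 against bulk 7 were called higher and 1 lower, for HFSC against bulk 9 and 2, and for HFSC against CD34a6 3 and 7. Mybl2, which encodes B-Myb, was at 6.36 FPKM in CD34a6, 6.63 in HFSC and 1.73 in bulk. In the cultures 2 of 16 tested were called higher in CD34+ cells, Mybl2 (6.83 against 2.78) and E2f7 (3.24 against 1.105), and 0 with dorsomorphin. E2f2 was the gene called lower in CD34a6 than in bulk, at 5.76 against 12.4 FPKM. Of 10 checkpoint and CDC25 genes, 4 were called higher and 1 lower in CD34a6 against bulk, 2 and 1 in HFSC against bulk, 0 and 5 in HFSC against CD34a6, 0 in CD34+ cells (1 higher at an unadjusted p under 0.05) and 1 and 0 with dorsomorphin. That last gene was Ttk, a spindle checkpoint kinase, at 14.96 against 8.17 FPKM. Of 6 CDK genes and partners, 2 were called higher and 0 lower in CD34a6 against bulk and in HFSC against bulk, 2 and 1 in HFSC against CD34a6, and 0 in the cultures, where 2 were lower in CD34+ cells and 2 higher with dorsomorphin at an unadjusted p under 0.05. Cks1b, a small subunit of the kinases, was at 33.9 FPKM in CD34a6, 49.0 in HFSC and 10.9 in bulk. Of all tested loci, 22% were called higher and 24.3% lower in CD34a6 against bulk, 19% and 24.7% in HFSC against bulk, and 25.2% and 29% in HFSC against CD34a6. In the cultures these shares were 2.08% and 4.71% in CD34+ cells and 1.26% and 1.31% with dorsomorphin. At an unadjusted p under 0.05 they were 8.69% and 13.9%, and 6.22% and 6.4%. Several shares of these 3 lists are near or below those of all tested loci, and nothing particular to the lists is read from their counts.

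The CDK inhibitor genes separated the populations in another way. Cdkn1a, the p21 gene, was at 24.8 FPKM in CD34a6, 225 in HFSC and 563 in bulk, and every pair was called. Cdkn2b (p15) had the same order, 1.07, 11.1 and 25.5 FPKM, while Cdkn1b (p27) was highest in CD34a6, at 92.2 against 17.7 in HFSC and 32.2 in bulk. So CD34a6, where 24 of the 35 cycle genes were called higher than in bulk, had less Cdkn1a and Cdkn2b and more Cdkn1b than bulk. HFSC, where 21 were called higher, had less Cdkn1a, Cdkn2b and Cdkn1b than bulk. Of the tested inhibitors, 1 of 6 was called higher and 2 lower in CD34a6 against bulk (all loci 22% and 24.3%). In HFSC against bulk 1 of 7 was called higher and 5 lower (19% and 24.7%). In HFSC against CD34a6 these were 2 and 3 of 7 (25.2% and 29%). A link to the cycle genes was not tested. Cdkn2a was at 22.4 FPKM in HFSC, 0.0381 in CD34a6 and 0.11 in bulk. It was called against bulk (q = 0.00174 in the authors' deposited table) and not against CD34a6 (q = 0.330 there). Cdkn1c stayed between 0.657 and 0.738 FPKM. In the cultures 0 of 5 tested inhibitors was called in the authors' deposited table, with 1 higher and 1 lower in CD34+ cells at an unadjusted p under 0.05 and 0 between the inhibitors. Of all tested loci, 2.08% were called higher and 4.71% lower in CD34+ cells, and 1.26% and 1.31% with dorsomorphin. At an unadjusted p under 0.05 the shares were 8.69% and 13.9%, and 6.22% and 6.4%. Nothing is read from the inhibitor counts in the cultures. Cdkn1a was at 339 FPKM in CD34+ and 457 in CD34neg cells, and at 652 with dorsomorphin and 655 with cyclopamine. Cdkn1b was at 9.14 and 9.97, and at 6.11 and 5.78.

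Several loci in the tables cover more than one gene name, and their FPKM may hold reads of both. Among the genes described these are Mcm7, Ccne2 (with Ints8), Top2a (with Gm26394), Ccna2 (with Exosc9), Cdc20 (with Elovl1), Cenpf (with Gm37239), Ube2c (with Tnnc2), Tpx2 (with Mir5622), Ccnd1 (with Oraov1), Ccnd2 (with 9330179D12Rik) and Ccnd3 (with Bysl). The library kit keeps the strand, and whether the authors used it in counting is not given in the sources used here. By position in GRCm38, as the tables give it, Top2a is at chr11:98992943-99024189, Mki67 at chr7:135689788-135716379, Tpx2 at chr2:152847964-152895321, Ccnd1 at chr7:144915100-144939869, Mcm2 at chr6:88883475-88898780 and the row of Foxm1 at chr6:128362967-128408932.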

How the data were processed

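The genes and lists were chosen with earlier results of these data known. For the first table (9 libraries), the submitters' processing notes list HISAT 0.1.6, StringTie 1.1.0, Cufflinks 2.2.1, Cuffdiff and FastQC 0.11.3, while the labels name a TopHat2 alignment. The authors' notes on the 12 culture libraries list TopHat2 2.0.13, cutadapt 1.5, DESeq2 1.8.1, Subread 1.4.2 with featureCounts, and FastQC 0.11.2. The build was GRCm38. All 3 tables have the Cuffdiff layout, and no source used here says which of these tools gave the p-values of the last 2.

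Per the file headers, the authors deposited FPKM values, 1 for each locus and population, with log2 fold changes, p-values and adjusted p-values (q-values). No per-replicate values were analysed here, and the calls are those of the authors' deposited comparison at 0.05 over all tested loci, pooled over 3 pairs in the first table. The smallest deposited p-value was 5e-05. Populations were read from the names on each line, and differences were recomputed as log2(FPKM + 1) with Python 3.11.15, pandas 2.3.3, numpy 2.4.6 and scipy 1.17.1. Scripts were tested on simulated data. The column 3C_HFSC of the fraction table was read as CD34+, and bulk of the first table as total epidermal cells. A pseudocount of 1 understates folds of low genes. Depth was unknown, so no counting interval is given. All genes of the list are accounted for. Outside it, the rule named 5 CDK inhibitors and up to 3 called genes of each of 6 further lists per comparison and direction. Exonic lengths come from GENCODE vM21, promoters from RefSeq. Alternatives were stricter calls, adjustment within a pair, another pseudocount, a mean for the median, a level filter and loci free of other genes, and, added after seeing the data, a length trend, Foxm1's joint row, loci overlapping no other coding gene and scaling.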

Additional observations from a re-analysis of the deposited data

How the results depend on the processing

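No paired analysis was possible because the tables hold 1 value for each population, and for the same reason no library could be left out. The counts of called genes that moved by more than 1.5 times are given next, and the cause, beyond fewer genes or a stricter threshold, was not tested. At an adjusted p under 0.01, the count higher in CD34a6 against bulk was 4 for S phase (from 7), in HFSC against bulk 7 for G2 and M phase (from 13), in CD34+ cells 1 (from 6, Tpx2) and with dorsomorphin 0 (from 2), and the count of S phase genes lower in HFSC than in CD34a6 was 1 (from 3). With a change of at least 1.5-fold required, the last was also 1 and the dorsomorphin count 1. Among loci without another gene name, 3 genes were left in CD34+ cells and 1 with dorsomorphin, and among loci overlapping no other coding gene 1 with dorsomorphin. The S phase minus G2 and M phase median, in the order CD34a6 against bulk, HFSC against bulk, HFSC against CD34a6, CD34+ against CD34neg and dorsomorphin against cyclopamine, was -0.33, -0.076, 0.28, -0.13 and -0.40 with a pseudocount of 0.1 FPKM, -0.59, -0.14, 0.45, -0.22 and -0.27 with means, and -0.56, -0.15, 0.33, -0.29 and -0.32 with the length trend subtracted. Without loci of another gene name it moved to -0.38, 0.15 and -0.37 for CD34a6 against bulk, HFSC against CD34a6 and the inhibitors, and reversed to 0.11 for CD34+ against CD34neg. With Foxm1's joint row it was -0.31, -0.050 and -0.16 for CD34a6 against bulk, HFSC against bulk and CD34+ against CD34neg, and with loci overlapping no other coding gene -0.46, -0.12 and -0.084. Unknown depth limits what a low gene such as E2f1 can show.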
